A study of Mus musculus with 13 samples.

Results

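The loss of casein kinase Iα (CKIα) in mouse gut epithelium that also lacks p21 was measured as the difference between 2 groups of enterocyte arrays. The CKIα Het/p21 KO group was heterozygous and the CKIα KO/p21 KO group homozygous for a gut-specific knockout of CKIα, and both carried the p21 knockout on a 129/SVJ background. Each group held 2 arrays, which makes 4 of the 13 arrays of the series, and the labels call the 2 arrays of a group biological replicates. All 4 arrays lack p21, so what follows describes CKIα loss on top of p21 loss, and the CKIα Het arrays are not wild type. For comparison, a CKIα KO group was set against a CKIα Het group with p53 and p21 present. Without p53, a CKIα KO/p53 KO group, which carried a p53 knockout, was set against a CKIα Het/p53 KO group. These groups also held 2 arrays each, and all 6 groups entered the fit. The labels do not give the promoter that drives the gut-specific knockout, the deleted exons or the age of the mice. Every gene with a probe set of its own was followed, and 16721 genes bright enough to test entered the comparison. Values are log2 intensities normalized by RMA, a method that summarises the probes of a gene after correcting the background, and a difference of 1 on this scale is a 2-fold change.

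CKIα phosphorylates β-catenin within the complex that marks it for degradation, and its loss in the gut releases β-catenin, the effector of Wnt signalling, to switch on its target genes. The same loss is known to activate p53, the transcription factor that answers DNA damage and oncogenic stress by arresting or killing cells. The p21 protein, encoded by Cdkn1a, is a p53 target that blocks the cyclin-dependent kinases driving the cell cycle, so that without it 1 arm of the p53 response is missing while the others remain.

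The 4 arrays were of unequal distance. The CKIα Het/p21 KO and CKIα KO/p21 KO arrays are called Het arrays and KO arrays from here. On the leading principal component of the tested genes over 12 arrays, which carried 51.6% of the variance, the Het arrays lay at -18.1 and -28.5 and the KO arrays at 6.91 and 54.0. The KO arrays had the widest spread between replicates of the 6 groups in the series, with a replicate SD of 0.341 and 781 genes more than 2-fold apart, against 0.236 and 183 genes for the Het arrays. Xist, which coats the silenced X chromosome of female cells, was at 3.15 on both replicate 1 arrays and at 9.26 and 10.1 on the replicate 2 arrays, the pattern of a male and a female mouse in each group. The tissue label was borne out by Vil1, a brush border protein, and Epcam, an epithelial surface protein, which lay above the 99th percentile of tested genes on each of the 4 arrays. The leukocyte gene Ptprc lay at percentiles 87.0 and 95.0 on the Het arrays and 81.7 and 58.2 on the KO arrays, so the samples also held leukocyte RNA. Csnk1a1, the CKIα gene, lay between 10.44 and 10.70 on these arrays, and its probe set checks no genotype. Cdkn1a shares its probe set with another gene and was not analysed here.

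Loss of CKIα without p21 raised 244 genes and lowered 86 at an adjusted p under 0.05 by limma, a linear model fitted to all genes. These were 1.46% and 0.514% of the genes tested, and 3881 genes had an unadjusted p under 0.05, 2343 higher (14%) and 1538 lower (9.2%). The median log2 difference of all genes was -0.0059. Of the higher genes 176 differed by more than 2-fold, and of the lower genes 50. The calls lay close to the threshold, with a median adjusted p of 0.0459, and rested on a spread pooled over all 6 groups. With the spread of the 4 arrays alone, 0 genes were called by limma, while 2489 had an unadjusted p under 0.05. Without Het replicate 2, 0 genes were called, and the loss of Het replicate 1 left 12 higher and 6 lower. Without KO replicate 2, 11 were higher and 3 lower, whereas without KO replicate 1 the counts were 1695 and 1082. Leaving out an array of another group gave between 13 and 228 higher and between 2 and 75 lower genes. In all 330 called genes both KO arrays lay beyond both Het arrays, so that leaving out an array could not turn their direction. Over all tested genes, 26.9% had both KO arrays above both Het arrays and 24.3% had them below.

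**Figure D1:**
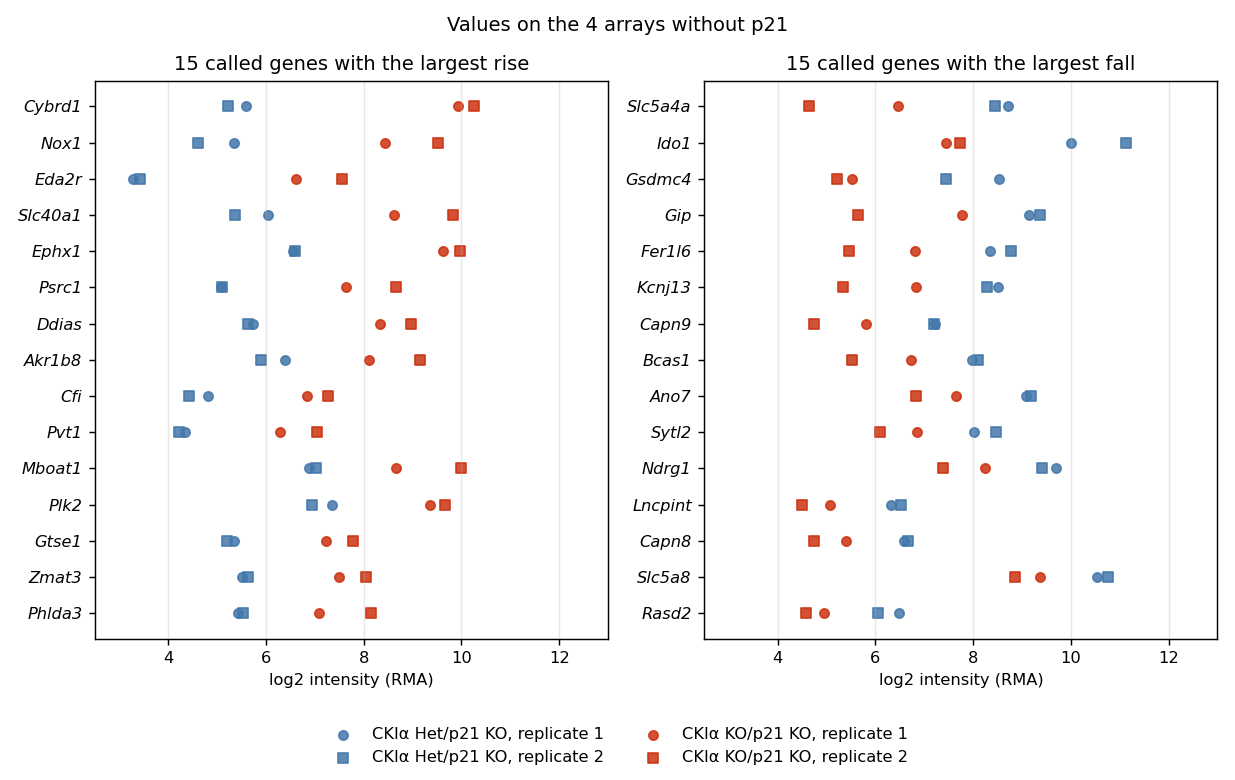
Log2 intensity (x axis) of the 15 called genes with the largest rise (left) and the 15 with the largest fall (right) on the 4 arrays; circles are replicate 1 and squares replicate 2, blue is CKIα Het/p21 KO and red CKIα KO/p21 KO. For each gene both red points lie beyond both blue points; Cybrd1 has the largest rise, from 5.60 and 5.23 to 9.94 and 10.25.

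**Figure D2:**
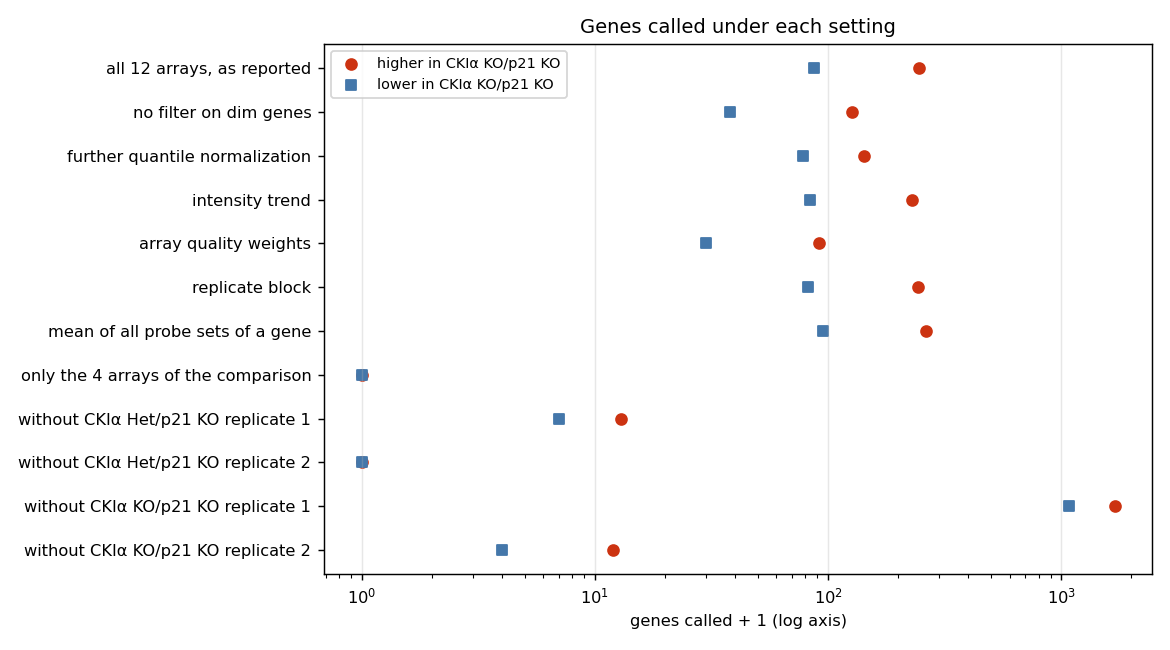
Number of genes called plus 1 (log axis) under each setting of the fit, with genes higher in CKIα KO/p21 KO as red circles and genes lower as blue squares; a point at 1 stands for 0 genes. The counts of 244 and 86 fall to 0 without CKIα Het/p21 KO replicate 2 or with the 4 arrays alone and reach 1695 and 1082 without CKIα KO/p21 KO replicate 1.

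Targets of p53 that act in arrest, feedback and stress control were higher on both KO arrays by similar amounts. Of 38 members tested, 15 rose and 0 fell, against 1.46% and 0.514% of all genes, and their median log2 difference was 0.65. Against the mean of the Het arrays the median member was higher by 0.63 on KO replicate 1 and by 0.80 on KO replicate 2. Both KO arrays were above both Het arrays for 28 of the 38, against 26.9% of all genes.

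Eda2r encodes a receptor of the TNF family that belongs to the cell death targets of p53. It lay at 3.27 and 3.42 on the Het arrays and at 6.62 and 7.55 on the KO arrays, a difference of 3.74 ± 0.38 (SE, n = 2 per group, adjusted p = 0.00928). Psrc1, a microtubule protein of the mitotic spindle that p53 regulates, lay at 5.08 and 5.10 on the Het arrays and at 7.64 and 8.67 on the KO arrays, with a difference of 3.07 ± 0.32 (adjusted p = 0.00928). For both genes the KO arrays stood more than 2-fold above either Het array, with KO replicate 2 the higher. Ccng1, cyclin G1, which p53 induces and which recruits a phosphatase, lay at 9.66 and 9.54 on the Het arrays and at 11.58 and 11.80 on the KO arrays (2.09 ± 0.23, adjusted p = 0.00928). Zmat3, an RNA-binding protein that p53 induces, lay at 5.50 and 5.63 on the Het arrays and at 7.50 and 8.04 on the KO arrays (2.21 ± 0.24, adjusted p = 0.00928). The replicates of Ccng1 lay close together within each group, and the groups did not overlap.

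The Ccng1 promoter shows the kind of sequence p53 reads. In the 250 bases before its annotated start in RefSeq (GRCm38.p6, chr11:40755287-40755536, minus strand) a match to the consensus p53 response element with 1 mismatch, in capitals, begins 195 bases before the start.
Ccng1: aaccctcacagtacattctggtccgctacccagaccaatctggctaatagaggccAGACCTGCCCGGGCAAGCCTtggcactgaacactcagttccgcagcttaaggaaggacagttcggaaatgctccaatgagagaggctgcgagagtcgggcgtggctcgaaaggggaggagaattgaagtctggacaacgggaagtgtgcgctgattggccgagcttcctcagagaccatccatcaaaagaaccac
The search read the 20-base consensus without spacer on both strands and allowed 1 mismatch. Such a match was present in 8 of 13169 promoters of tested genes (0.061%) and in 2 of the 31 promoters of the arrest and stress list, those of Ccng1 and Rps27l. Rps27l, a ribosomal protein homologue that p53 induces, was at 1.34 ± 0.30 and did not pass (adjusted p = 0.0539). The promoter was chosen after the values were seen, and a match describes the letters of this window only.

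The remaining members that rose included Ephx1, an epoxide hydrolase, at 6.56 and 6.60 on the Het arrays and 9.62 and 9.97 on the KO arrays (3.21 ± 0.54, adjusted p = 0.0343). Plk2, a polo-like kinase of the stress response, rose by 2.36 ± 0.48, Gtse1, a microtubule protein that restrains p53, by 2.23 ± 0.28, and Phlda3, an inhibitor of the kinase Akt, by 2.13 ± 0.40. Aen, a nuclease of apoptosis, rose by 1.73 ± 0.28 and Sesn2, a sestrin that damps growth signalling, by 1.34 ± 0.27. Polk, a DNA polymerase that copies past lesions, and Ercc5, a nuclease of excision repair, rose by 1.13 ± 0.18 and 0.86 ± 0.17. The other risers were Ckap2, Ei24, Inka2 and Cd80, with differences between 0.88 and 1.57. Not every p53 target moved. Mdm2, the ligase that degrades p53, was at 0.57 ± 0.21 (adjusted p = 0.146), and Trp53inp1 at 0.68 ± 0.23 (adjusted p = 0.12). Sesn1 and Btg2, a sestrin and an antiproliferative factor, were at -1.0 ± 0.41 and -0.63 ± 0.39. Mdm4, a partner of Mdm2 that restrains p53, is outside the lists and was named after its values were seen. It lay at 8.35 and 8.37 on the Het arrays and at 9.53 and 9.92 on the KO arrays (1.36 ± 0.22, adjusted p = 0.033).

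Of 18 p53 targets that act in cell death, 3 rose and 0 fell, against 1.46% and 0.514% of all genes, and the median was 0.04. Besides Eda2r these were the death receptor Tnfrsf10b (1.47 ± 0.18, adjusted p = 0.0154) and Pidd1, which assembles a caspase-activating complex (1.46 ± 0.25, adjusted p = 0.0343). Tnfrsf10b lay at 6.06 and 5.49 on the Het arrays and at 7.17 and 7.32 on the KO arrays. The killer protein Bbc3 was at 0.02 ± 0.15, the death receptor Fas at 0.05 ± 0.24 and Perp, a membrane protein of apoptosis, at 0.30 ± 0.16, and none of these 3 passed. Among the lower genes was Lncpint, a long non-coding RNA that p53 is known to induce, at 6.31 and 6.53 on the Het arrays and 5.07 and 4.51 on the KO arrays (-1.63 ± 0.24, adjusted p = 0.0268).

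The same targets were followed with p53 and p21 present and without p53, in mice that share none of the 4 arrays. The 38 arrest and stress targets had a median log2 difference of 0.25 with both genes present and of 0.04 without p53, against 0.65 without p21. Without p53, 5 of the 38 rose and 3 fell by limma, against 11% and 6.82% of all genes. The CKIα effect without p21 was larger than that without p53 at an unadjusted p under 0.05 for 19 of the 38 and smaller for 1, against 4.82% and 3.89% of all genes. Of these only Dglucy passed after adjustment. The effect of CKIα loss on Eda2r was 3.74 without p21, 1.90 with both genes and -0.15 without p53, and its difference from the effect without p53 was 3.88 ± 0.53 (adjusted p = 0.0991). For Ccng1 the 3 effects were 2.09, 1.43 and -0.23, and for Psrc1 3.07, 1.36 and 0.04. Plk2 differed from these, with 2.36 without p21 and 2.09 without p53 (adjusted p = 0.0199 for the latter).

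**Figure D3:**
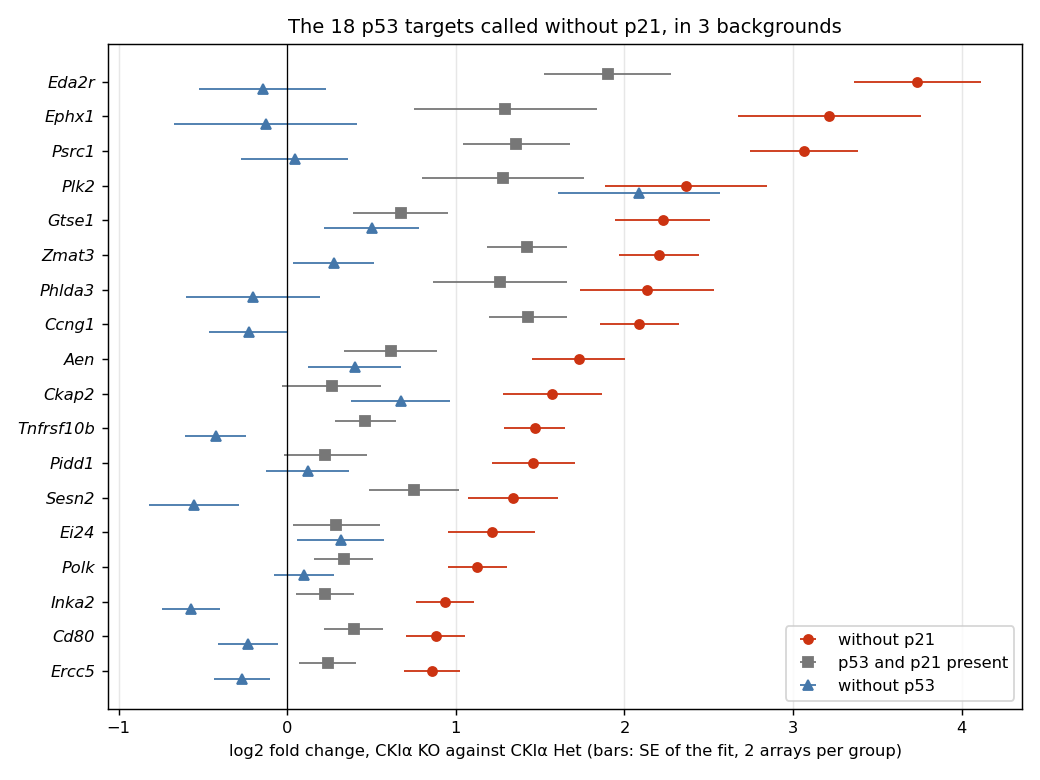
Log2 fold change of CKIα KO against CKIα Het (x axis; bars are SE of the fit, 2 arrays per group) for the 18 p53 targets called without p21, shown without p21 (red circles), with p53 and p21 present (grey squares) and without p53 (blue triangles). The red points lie between 0.86 (Ercc5) and 3.74 (Eda2r), while the blue points lie near or below 0 for most genes, Plk2 at 2.09 being the highest; the genes were chosen by the red values.

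Genes of Myc and ribosome biogenesis, which make ribosomal RNA and assemble it into ribosomes, formed the list with the largest share of calls. Of 33 tested, 16 rose and 0 fell, against 1.46% and 0.514% of all genes. The median was 1.13, with 0.81 on KO replicate 1 and 1.53 on KO replicate 2. Npm1, nucleophosmin, an abundant nucleolar chaperone, lay at 8.97 and 8.89 on the Het arrays and at 9.90 and 10.18 on the KO arrays (1.10 ± 0.22, adjusted p = 0.0466). Utp20, a component of the small subunit processome, lay at 6.68 and 6.09 on the Het arrays and at 7.62 and 8.28 on the KO arrays (1.56 ± 0.24, adjusted p = 0.031). Fbl, fibrillarin, the methyltransferase that modifies ribosomal RNA, lay at 7.02 and 6.67 on the Het arrays and at 7.66 and 8.24 on the KO arrays (1.10 ± 0.23, adjusted p = 0.0481). In all 3 genes the KO arrays lay above the Het arrays, with KO replicate 2 the highest of the 4.

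Nop58, a partner of fibrillarin, rose by 1.52 ± 0.28, Dkc1, the enzyme that forms pseudouridine in ribosomal RNA, by 1.31 ± 0.28, and Nolc1, a nucleolar scaffold, by 1.43 ± 0.30. Polr1a, the largest subunit of RNA polymerase I, rose by 1.25 ± 0.25, Wdr12, needed for the large subunit, by 1.30 ± 0.25, and Cad, which starts pyrimidine synthesis, by 1.14 ± 0.17. The other risers were Nop2, Nop16, Rrp12, Noc4l, Heatr1, Ddx21 and Ipo4. Myc itself, the transcription factor that drives these genes and a Wnt target, lay at 7.54 and 6.84 on the Het arrays and at 8.76 and 9.79 on the KO arrays. Its difference of 2.09 ± 0.55 did not pass (adjusted p = 0.0716). Pvt1, a long non-coding RNA gene that neighbours Myc, rose by 2.39 ± 0.34, from 4.34 and 4.22 on the Het arrays to 6.29 and 7.05 on the KO arrays (adjusted p = 0.0253). The ribosome list had a median of 0.40 with p53 and p21 present, where 0 of 33 were called, and of 1.45 without p53, where 28 rose and 1 fell by limma (11% and 6.82% of all genes). The difference between the effects without p21 and without p53 had an unadjusted p under 0.05 for 1 of the 33, and 0 passed.

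Genes of cell division were higher on both KO arrays, and more so on replicate 2. All 70 mitosis and spindle genes had a log2 difference above 0, 9 rose at the threshold, 0 fell and the median was 0.99. All 51 genes of DNA replication were above 0 as well, with 2 that rose, 0 that fell and a median of 0.80. Over all genes 1.46% rose and 0.514% fell. The median mitosis gene was 0.46 above the Het mean on KO replicate 1 and 1.48 on KO replicate 2, and the median replication gene 0.37 and 1.22. Both KO arrays exceeded both Het arrays for 59 of 70 and 42 of 51, against 26.9% of all genes.

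Bub1, a kinase of the spindle checkpoint, lay at 6.35 and 6.0 on the Het arrays and at 7.43 and 8.16 on the KO arrays (1.62 ± 0.30, adjusted p = 0.0433). Plk1, the kinase that drives entry into mitosis, lay at 7.40 and 6.67 on the Het arrays and at 8.08 and 8.79 on the KO arrays (1.40 ± 0.28, adjusted p = 0.0466). Mcm2, a subunit of the replicative helicase, lay at 7.09 and 7.14 on the Het arrays and at 8.05 and 8.78 on the KO arrays (1.29 ± 0.21, adjusted p = 0.0336). The groups did not overlap for these genes, and KO replicate 2 was the highest array for each. Ncaph, a condensin subunit, rose by 1.69 ± 0.32, Cenpe, a motor of the kinetochore, by 1.52 ± 0.33, and Anln, a scaffold of the cytokinetic ring, by 1.46 ± 0.31. Cenpf, Mad2l1 and Sgo1, which act at the kinetochore and centromere, rose by 1.35, 1.26 and 1.17, and Fen1, the nuclease of Okazaki fragments, by 1.22 ± 0.25. Mki67, the proliferation antigen, lay at 8.06 and 7.91 on the Het arrays and at 8.41 and 9.33 on the KO arrays and did not pass (0.88 ± 0.31, adjusted p = 0.125). Neither did Top2a (1.03 ± 0.32, adjusted p = 0.101) or cyclin A2, Ccna2 (1.15 ± 0.30, adjusted p = 0.0717).

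Promoters of mitotic genes are known to carry CCAAT boxes, which the factor NF-Y reads, and 3 promoters of genes that rose are shown with these boxes in capitals. Each is the 250 bases before an annotated start in RefSeq (GRCm38.p6), 5′ to 3′ along the gene. They lie at chr7:122159185-122159434 (plus strand) for Plk1, chr2:127831860-127832109 (minus strand) for Bub1 and chr3:108383554-108383803 (plus strand) for the more upstream start of Psrc1.
Plk1: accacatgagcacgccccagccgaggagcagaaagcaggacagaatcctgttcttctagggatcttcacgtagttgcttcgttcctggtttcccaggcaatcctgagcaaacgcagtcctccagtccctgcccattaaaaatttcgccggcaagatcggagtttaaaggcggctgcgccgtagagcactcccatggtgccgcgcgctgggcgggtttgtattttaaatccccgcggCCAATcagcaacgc
Bub1: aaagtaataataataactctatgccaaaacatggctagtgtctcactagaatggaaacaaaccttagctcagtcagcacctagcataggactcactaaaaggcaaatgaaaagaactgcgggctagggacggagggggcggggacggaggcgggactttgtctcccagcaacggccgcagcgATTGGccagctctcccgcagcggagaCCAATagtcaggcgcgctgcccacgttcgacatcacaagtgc
Psrc1: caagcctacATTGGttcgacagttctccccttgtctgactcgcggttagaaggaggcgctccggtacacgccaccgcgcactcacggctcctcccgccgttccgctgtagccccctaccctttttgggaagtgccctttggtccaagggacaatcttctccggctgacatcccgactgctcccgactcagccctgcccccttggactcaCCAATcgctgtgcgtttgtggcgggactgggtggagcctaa
CCAAT was searched on both strands, so that ATTGG is the same box on the other strand. It begins 14 bases before the start of Plk1, and the boxes of Bub1 begin 68 and 42 bases before its start. It was present in 39 of 59 mitosis promoters (66.1%), 25 of 42 replication promoters (59.5%) and 22 of 31 promoters of the p53 arrest list (71.0%), against 38.8% of 13169 promoters of tested genes. Of the 9 mitosis genes that rose, 5 had it. TTTGAA, the core of the cell cycle homology region, was present in 32.2% of mitosis promoters and 13.6% of all, and in 0 of those 9. The E2F motifs TTTGGCGC and TTTCCCGC were present in 14.3% of replication promoters and 2.4% of all, and in 0 of the 2 replication genes that rose. They were also present in 15.4% of Myc and ribosome promoters, 13.9% of damage checkpoint and repair promoters and 5.1% of mitosis promoters.

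The G1 regulators moved less. Of 31 cyclins, kinases, E2F factors and inhibitors tested, 0 were called, with a median of 0.29. Cyclin D2, Ccnd2, which is also a Wnt target, lay at 10.33 and 10.21 on the Het arrays and at 11.81 and 11.62 on the KO arrays and fell short of the threshold (1.45 ± 0.32, adjusted p = 0.0509). Of 48 genes of the DNA damage checkpoint and repair, 45 were above 0 and 1 rose, the checkpoint kinase Chek2 (1.41 ± 0.30, adjusted p = 0.0485), with a list median of 0.59. That is 2.08% of the list, near the 1.46% of all genes that rose. Tert, the catalytic subunit of telomerase, is outside the lists and was named after its values were seen; it rose by 0.96 ± 0.19 (adjusted p = 0.0469). With p53 and p21 present, the mitosis and replication lists had medians of 0.06 and -0.07 and 0 calls. Without p53 their medians were 1.04 and 0.97, with 44 of 70 and 30 of 51 higher and 0 lower by limma. In that contrast 11% of all genes were higher and 6.82% lower. In no gene of these 2 lists did the effect of CKIα loss without p21 differ at the adjusted threshold from that with both genes. For this difference 31 of 70 and 24 of 51 had an unadjusted p under 0.05, counted in either direction. Over all genes 4.34% had such a p with a larger effect without p21 and 3.79% with a smaller one. Without KO replicate 2, 11 genes in all were called higher.

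Wnt targets were higher mainly on KO replicate 2. Axin2, a scaffold of the destruction complex and a feedback inhibitor of the pathway, lay at 7.22 and 7.04 on the Het arrays and at 8.75 and 9.35 on the KO arrays (1.92 ± 0.23, adjusted p = 0.014). Rnf43, a ligase that removes Wnt receptors, lay at 7.53 and 7.21 on the Het arrays and at 8.78 and 9.40 on the KO arrays (1.72 ± 0.32, adjusted p = 0.0433). Both genes separated the groups on each KO array. They were the 2 risers among 13 feedback inhibitors, with 0 lower, against 1.46% and 0.514% of all genes. The list median was 0.56, which was 0.18 on KO replicate 1 and 0.76 on KO replicate 2. Notum, a secreted enzyme that inactivates Wnt, lay at 4.74 and 4.34 on the Het arrays and at 5.16 and 7.08 on the KO arrays (1.58 ± 0.75, adjusted p = 0.241). Nkd1, an inhibitor of Dishevelled, was at 1.39 ± 0.42 (adjusted p = 0.0957) and Znrf3, the homologue of Rnf43, at 0.65 ± 0.34 (adjusted p = 0.287).

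Of 21 other Wnt targets 18 were above 0 and 0 were called, with a median of 1.11, which was 0.56 on KO replicate 1 and 1.73 on KO replicate 2. The adhesion receptor Cd44 came closest, at 6.87 and 6.09 on the Het arrays and 8.42 and 9.94 on the KO arrays (2.70 ± 0.59, adjusted p = 0.0508). Prox1, a homeobox factor, was at 2.21 ± 0.51 (adjusted p = 0.056) and Sox9, a factor of the crypt, at 1.43 ± 0.53 (adjusted p = 0.146). Among 15 markers of the crypt base, Rnf43 and Hopx rose and 0 fell, against 1.46% and 0.514% of all genes, with a median of 0.83. Hopx, a homeodomain protein of reserve stem cells, lay at 6.29 and 6.11 on the Het arrays and at 7.30 and 7.29 on the KO arrays (1.09 ± 0.15, adjusted p = 0.0253). Lgr5, the receptor that marks cycling stem cells, was at -0.69 ± 0.31, and Olfm4, a secreted stem cell marker, at -0.70 ± 0.61, and neither passed. Without p53 the feedback inhibitors had a median of 1.65 with 9 of 13 higher and 0 lower, against 11% and 6.82% of all genes. The effect without p21 was smaller than that without p53 at an unadjusted p under 0.05 for 6 of the 13 and larger for 0, against 3.89% and 4.82% of all genes, and 0 passed after adjustment. For Nkd1 the effects were 1.39 without p21 and 3.37 without p53.

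Goblet and enteroendocrine genes were lower on both KO arrays. Atoh1, the transcription factor that commits crypt cells to a secretory fate, lay at 8.93 and 8.86 on the Het arrays and at 7.81 and 7.53 on the KO arrays (-1.23 ± 0.17, adjusted p = 0.0253). Tff3, the trefoil peptide of goblet cells, lay at 12.38 and 12.47 on the Het arrays and at 11.40 and 10.45 on the KO arrays (-1.50 ± 0.30, adjusted p = 0.0466). Sytl2, a protein of granule release, lay at 8.02 and 8.46 on the Het arrays and at 6.85 and 6.09 on the KO arrays (-1.77 ± 0.25, adjusted p = 0.0253). The Het replicates of Atoh1 and Tff3 lay within 0.1 of each other, and both KO arrays were lower than both Het arrays in all 3 genes. Of 23 goblet and secretory fate genes 5 fell and 0 rose, against 0.514% and 1.46% of all genes, with a median of -0.77, which was -0.53 on KO replicate 1 and -0.71 on KO replicate 2. The other members that fell were Capn9, a calpain of the digestive tract (-1.94 ± 0.33), and Ern2, a stress sensor of the goblet cell reticulum (-0.78 ± 0.15). Muc2, the main mucin, lay at 12.99 and 13.19 on the Het arrays and at 12.26 and 11.04 on the KO arrays and did not pass (-1.44 ± 0.34, adjusted p = 0.0574). In these bulk samples, fewer cells of a type and less RNA per cell cannot be told apart.

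Genes outside the lists that fell included the partner of Capn9, Capn8 (-1.56 ± 0.19, adjusted p = 0.0154), and the ferlin family gene Fer1l6 (-2.43 ± 0.34, adjusted p = 0.0253). Rab27a, the GTPase that docks granules for release and binds Sytl2, lay at 8.60 and 8.54 on the Het arrays and at 7.53 and 7.12 on the KO arrays (-1.24 ± 0.18, adjusted p = 0.0264). Sytl5, a further protein of the Sytl family, fell by 1.35, and both were named after their values were seen. In the enteroendocrine lists, 1 of 15 hormones fell, the incretin Gip, and 0 rose, against 0.514% and 1.46% of all genes. The hormone median was -0.93. Gip lay at 9.13 and 9.36 on the Het arrays and at 7.77 and 5.64 on the KO arrays (-2.54 ± 0.53, adjusted p = 0.0481), and KO replicate 2 was the lowest array by more than 2. Of 28 enteroendocrine factors and granule proteins 3 fell and 0 rose, against 0.514% and 1.46% of all genes, with a median of -0.29. These were the granule protein Chga (-1.45 ± 0.25, adjusted p = 0.035) and the transcription factors Neurod1 (-0.92 ± 0.19, adjusted p = 0.0481) and Isl1 (-0.75 ± 0.15, adjusted p = 0.0481). With the replicate number as a block only Chga passed among these 3, while 3 of the 15 hormones fell. Somatostatin, Sst, was at -1.57 ± 0.47 and did not pass (adjusted p = 0.0937). Of 20 tuft cell markers 2 fell and 0 rose, against 0.514% and 1.46% of all genes. Plcb2, a phospholipase of taste signalling, and Sh2d6 fell by 0.96 and 0.73. Dclk1, the kinase that marks tuft cells, was at -0.74 ± 0.17 and did not pass (adjusted p = 0.055). Of 11 Paneth cell markers 0 were called, with a median of -0.32. Among 20 Notch pathway genes 1 rose and 0 fell, against 1.46% and 0.514% of all genes, and the riser was the ligand Jag1. It lay at 6.36 and 6.14 on the Het arrays and at 7.36 and 7.71 on the KO arrays (1.28 ± 0.15, adjusted p = 0.013). Its effect was 0.39 with p53 and p21 present and 0.04 without p53, and neither difference from the effect without p21 passed.

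Goblet markers were lower in the other backgrounds too, with medians of -0.36 with p53 and p21 present and -0.63 without p53. With both genes present 0 of the 23 were called. Without p53, 8 of 23 fell and 1 rose by limma, against 6.82% and 11% of all genes. The hormones had medians of -0.69 and -0.42, with 0 of 15 called with both genes present and 7 lower and 0 higher without p53. No gene of these lists differed in its CKIα effect without p21 from that in either other background at the adjusted threshold. Over all genes 0 differed from the effect with both genes and 2 from that without p53. A count of 0 in lists this short therefore does not show equal effects.

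Genes of the absorptive enterocyte were lower mainly on KO replicate 2. On KO replicate 1 the brush border and transporter medians were slightly lower, the lipid median near 0 and the xenobiotic median higher. Of 24 brush border hydrolases and structural genes 23 were below 0 and 0 were called, with medians of -0.18 on KO replicate 1 and -0.90 on KO replicate 2. Lct, lactase, lay at 11.91 and 11.67 on the Het arrays and at 11.59 and 8.16 on the KO arrays (-1.92 ± 0.94, adjusted p = 0.26), so only KO replicate 2 stood apart. Of 37 transporters of sugars, peptides, amino acids and vitamins 1 rose and 1 fell, against 1.46% and 0.514% of all genes. Their median was -0.66. Slc5a4a, a relative of the sodium-coupled glucose carriers, lay at 8.72 and 8.44 on the Het arrays and at 6.45 and 4.65 on the KO arrays (-3.03 ± 0.56, adjusted p = 0.0433). Slc19a2, a thiamine transporter, rose by 1.29 ± 0.22 (adjusted p = 0.035). Slc23a1, a vitamin C transporter, lay at 9.18 and 8.98 on the Het arrays and at 8.23 and 5.12 on the KO arrays and did not pass (-2.41 ± 0.79, adjusted p = 0.112). Of 36 xenobiotic genes 0 were called. The median was 0.21 on KO replicate 1 and -0.92 on KO replicate 2, and Cyp3a11, a drug-oxidizing cytochrome, lay at 9.31 and 8.84 on the Het arrays and at 9.27 and 4.13 on the KO arrays. Among 34 genes of lipid absorption 0 were called (median -0.41), with medians of -0.0057 on KO replicate 1 and -0.79 on KO replicate 2. Both KO arrays were below both Het arrays for 13 of the 24 brush border genes and 22 of the 37 transporters. The same held for 5 of the 36 xenobiotic and 11 of the 34 lipid genes, against 24.3% of all genes.

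Some called genes of epithelial transport belong to no transporter list. Kcnj13, a potassium channel, lay at 8.50 and 8.29 on the Het arrays and at 6.83 and 5.33 on the KO arrays (-2.32 ± 0.48, adjusted p = 0.0481). Slc5a8, a sodium-coupled carrier of short-chain fatty acids, lay at 10.53 and 10.75 on the Het arrays and at 9.36 and 8.85 on the KO arrays (-1.54 ± 0.31, adjusted p = 0.0477). Cftr, the chloride channel of the crypt, rose from 8.87 and 8.42 on the Het arrays to 9.64 and 9.54 on the KO arrays (0.94 ± 0.16, adjusted p = 0.035). Abcb1b, a drug efflux pump, rose by 1.65 ± 0.24, and Cldn2, a claudin that opens tight junctions to cations, by 2.13 ± 0.35. Cldn2 was on the invasion list. Kcnj13 and Slc5a8 were named for their size of change, and Cftr and Abcb1b after their values were seen.

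Cybrd1 and Nox1 had the largest rises of the called genes, followed by Eda2r and Slc40a1. Cybrd1, the duodenal reductase that prepares dietary iron for uptake, lay at 5.60 and 5.23 on the Het arrays and at 9.94 and 10.25 on the KO arrays (4.68 ± 1.01, adjusted p = 0.0497). Slc40a1, the iron exporter ferroportin, lay at 6.05 and 5.37 on the Het arrays and at 8.61 and 9.83 on the KO arrays (3.52 ± 0.74, adjusted p = 0.0485). Both KO arrays of each gene stood more than 2 log2 units above both Het arrays. With the replicate number as a block, Cybrd1 and Slc40a1 no longer passed (adjusted p = 0.0565 and 0.0532), and 1 of the 24 iron genes rose and 1 fell. Of 24 iron genes 3 rose, with Hmox1, the haem-degrading oxygenase, as the remaining riser (1.03 ± 0.20, adjusted p = 0.0466), 0 fell and the median was 0.18. Over all genes 1.46% rose and 0.514% fell. Nox1, the catalytic subunit of a superoxide-producing NADPH oxidase, lay at 5.34 and 4.61 on the Het arrays and at 8.43 and 9.52 on the KO arrays (4.0 ± 0.44, adjusted p = 0.00928). It was the 1 riser among 14 oxidase genes, with 0 lower. Duox2 and Duoxa2, the dual oxidase and its maturation factor, were at 0.70 ± 0.33 and 1.35 ± 0.33 without p21 and did not pass (adjusted p = 0.239 and 0.0617), against 3.87 and 4.02 with p53 and p21 present (adjusted p = 0.00381 for each). For Duox2 the difference between these effects did not pass (adjusted p = 0.308), and for Duoxa2 it did not either (adjusted p = 0.566).

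Of 28 antioxidant genes of the NRF2 type 4 rose and 0 fell, against 1.46% and 0.514% of all genes, with a median of 0.52. These were Ephx1, Hmox1, the aldo-keto reductase Akr1b8 (2.48 ± 0.45, adjusted p = 0.0408) and the efflux pump Abcc4 (1.69 ± 0.28, adjusted p = 0.0343). Nqo1 and Gclc, which serve as standard readouts of this response, were at 0.72 ± 0.35 and 0.53 ± 0.36 and did not pass. Of 25 genes of cholesterol and fatty acid synthesis 22 were above 0 and 1 rose, with a median of 0.72. This was the desaturase Scd2, at 8.17 and 8.35 on the Het arrays and 9.53 and 10.67 on the KO arrays (1.84 ± 0.36, adjusted p = 0.0465). The acyltransferase Mboat1 rose by 2.37 ± 0.50 (adjusted p = 0.0485).

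Few immune and defence genes passed, and Ido1, Psmb8 and Gsdmc4 were among those that fell. Ido1, the enzyme that breaks down tryptophan, lay at 10.01 and 11.13 on the Het arrays and at 7.45 and 7.73 on the KO arrays (-2.98 ± 0.56, adjusted p = 0.044). Psmb8, an immunoproteasome subunit, lay at 8.52 and 8.83 on the Het arrays and at 7.35 and 7.61 on the KO arrays (-1.19 ± 0.19, adjusted p = 0.033). Gsdmc4, a gasdermin of the gut, lay at 8.53 and 7.45 on the Het arrays and at 5.51 and 5.22 on the KO arrays (-2.63 ± 0.50, adjusted p = 0.044); its family members are close in sequence, and shared signal was not tested. The KO arrays of these 3 genes lay near each other and clear of the Het arrays. Of 37 interferon and antigen presentation genes 1 fell and 0 rose, against 0.514% and 1.46% of all genes, and the median was -0.35. Cd74 and H2-Ab1, which present antigen on class II molecules, were at -2.49 ± 0.56 and -2.63 ± 0.62 and did not pass (adjusted p = 0.0534 and 0.0572). Of 39 secreted factors of inflammation and senescence Ido1 fell and the cytokine Lif rose (0.69 ± 0.14, adjusted p = 0.0469). Of 25 genes of mucosal defence Gsdmc4 fell and Cfi rose. Cfi, the protease that inactivates complement, lay at 4.81 and 4.43 on the Het arrays and at 6.84 and 7.27 on the KO arrays (2.44 ± 0.25, adjusted p = 0.00928). Its effect was 0.08 with p53 and p21 present and 0.46 without p53, and neither difference from the effect without p21 passed (adjusted p = 0.308 and 0.163). Of 16 immediate early genes 15 were below 0, and 2 fell and 0 rose, against 0.514% and 1.46% of all genes. The 2 were Atf3 (-1.36 ± 0.19, adjusted p = 0.0253) and Ier2 (-0.80 ± 0.16, adjusted p = 0.0471).

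Markers of lymphocytes, which lie between the epithelial cells of the gut, were lower on the KO arrays, mainly between the replicate 2 arrays. Their median KO minus Het difference was -0.34 for the replicate 1 arrays and -2.02 for the replicate 2 arrays. All 34 tested were below 0, with a median of -1.25, 0 called and a smallest adjusted p of 0.0651. Both KO arrays were below both Het arrays for 29 of them, against 24.3% of all genes. Their summed linear intensity was 7842 and 16042 on the Het arrays and 6258 and 2566 on the KO arrays, so that the Het arrays themselves differed by about 2-fold. Cd8a lay at 9.06 and 10.43 on the Het arrays and at 9.03 and 7.49 on the KO arrays, and Cd3e at 7.46 and 8.59 on the Het arrays and at 7.30 and 6.25 on the KO arrays. Het replicate 1 and KO replicate 1 were thus close for both, while the replicate 2 arrays differed by more than 2 on the log2 scale. Among the lower genes, Icos, Itgad and Pik3cd, which are expressed in leukocytes, fell by 0.68, 1.12 and 1.45, and were named after their values were seen. Of 24 myeloid markers 1 fell, Cd83 (-0.86 ± 0.17), and 0 rose, against 0.514% and 1.46% of all genes. The summed intensity of the myeloid markers was 1689 and 1711 on the Het arrays and 1053 and 1209 on the KO arrays. Of 14 B cell, 18 fibroblast and smooth muscle, 14 endothelial and 8 enteric neuron markers 0 were called. Of the 18 fibroblast and smooth muscle markers 17 were below 0, and both KO arrays were below both Het arrays for 2. Their summed intensity was 1830 and 3385 on the Het arrays and 1934 and 1446 on the KO arrays, with Het replicate 2 the highest. The part of leukocyte RNA in the lower interferon, antigen presentation and defence genes was not tested.

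Genes of fetal-like and regenerating epithelium differed widely between the KO arrays. Of 22 tested 0 were called, and the median was -0.0071 on KO replicate 1 and 1.50 on KO replicate 2. Anxa10, an annexin, lay at 3.09 and 3.16 on the Het arrays and at 4.77 and 8.36 on the KO arrays (3.44 ± 1.21, adjusted p = 0.131). Ly6d, a surface protein, lay at 5.65 and 5.66 on the Het arrays and at 7.19 and 10.95 on the KO arrays (3.41 ± 0.93, adjusted p = 0.0757). KO replicate 1 was above both Het arrays for these 2 genes, but more than 3 log2 units below KO replicate 2. Of 30 genes of invasion and mesenchymal transition 1 rose, Cldn2, and 0 fell, with a median of -0.16. A set of 8 genes linked to invasion after joint loss of CKIα and p53, which was chosen on arrays of this series, had 0 calls without p21 and a median of 0.74, against 2.11 without p53. Among them Plat, the tissue plasminogen activator, was at 0.87 ± 0.46 without p21 and at 4.24 ± 0.46 without p53, and the difference of -3.37 ± 0.66 did not pass (adjusted p = 0.182). No member was called among 15 EphB and ephrin genes, 23 identity factors of the enterocyte or 15 clock genes. Of 26 genes of the unfolded protein and amino acid response Sesn2 and Psat1, which makes serine, rose and Atf3 fell. Axin2 was the 1 call among 34 genes of the destruction complex, CK1 kinases and TCF co-factors, and the median was -0.0046. Over all genes 1.46% rose and 0.514% fell.

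**Figure D4:**
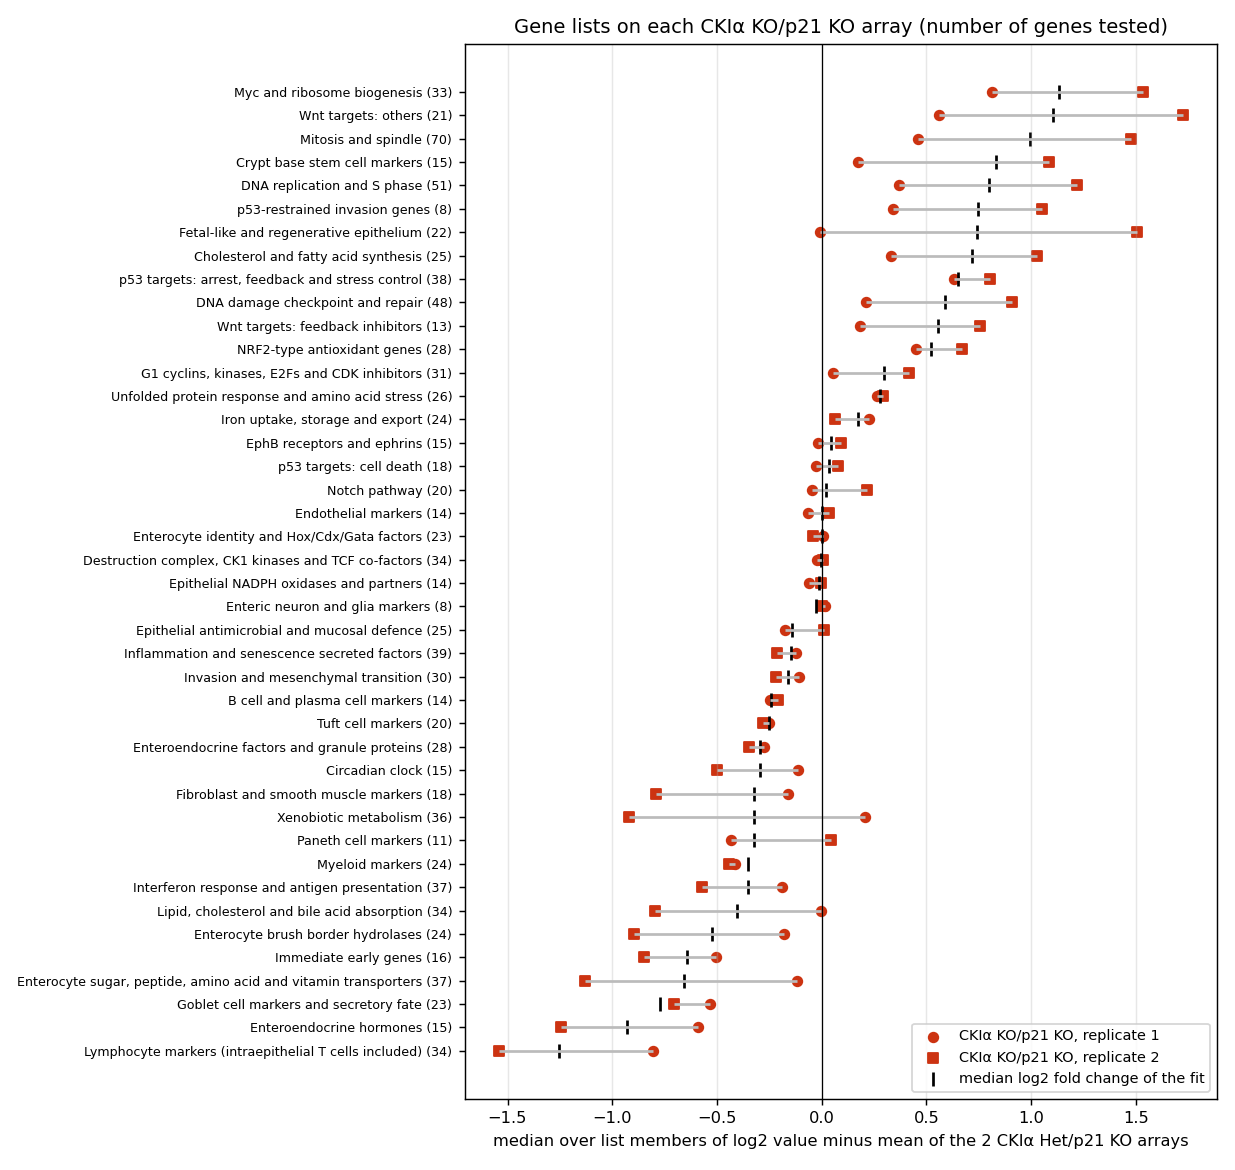
Median over the tested members of each gene list (number in brackets) of the log2 value on CKIα KO/p21 KO replicate 1 (circles) and replicate 2 (squares) minus the mean of the 2 CKIα Het/p21 KO arrays, with the median fitted log2 fold change as a black tick. The circle and square of the p53 arrest list lie close together at 0.63 and 0.80, whereas those of the fetal-like list lie at -0.0071 and 1.50 and those of the mitosis list at 0.46 and 1.48.

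The calls leaned on KO replicate 2. Of the 244 higher genes 231 were higher on replicate 2 than on replicate 1, and of the 86 lower genes 69 were lower on replicate 2. The genes that depended least on 1 array were sought among the calls. Leaving out each of the 4 arrays in turn, 7 genes stayed called without 3 of them, 15 without at least 2 and 0 without all 4. The 7 were Eda2r, Psrc1, Nox1 and Cfi, the damage-induced gene Ddias (5.74 and 5.63 on the Het arrays, 8.33 and 8.97 on the KO arrays, adjusted p = 0.00928), Itpripl1 (1.63 ± 0.16) and the exocyst subunit Exoc4 (1.48 ± 0.16). The other 8 of the 15 were Zmat3, Tnfrsf10b, Jag1, Cftr, Trmt6, Capn8, Fer1l6 and Bcas1. The array left out was each time also the only male-pattern or female-pattern array of its group.

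**Figure D5:**
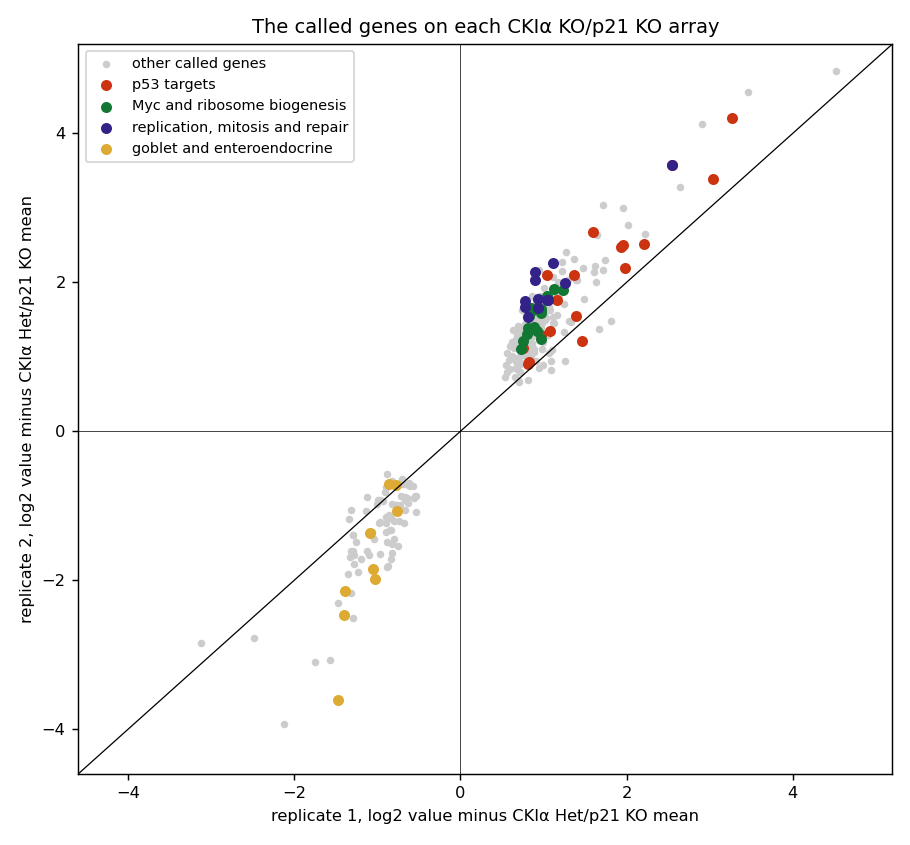
Log2 value on CKIα KO/p21 KO replicate 1 (x axis) and replicate 2 (y axis) minus the mean of the 2 CKIα Het/p21 KO arrays for the 330 called genes, with p53 targets in red, Myc and ribosome genes in green, replication, mitosis and repair genes in blue (Psrc1, a member of 2 lists, in blue) and goblet and enteroendocrine genes in yellow. Of the 244 higher genes 231 lie above the diagonal, on which both arrays differ equally.

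The calls were set beside the same contrast in the other backgrounds. Without p53, 179 of the 244 higher genes were also higher by limma, which is 73.4% of these 244 and 9.72% of the 1841 genes higher without p53, while 11% of all tested genes were. Of the 86 lower genes 46 were also lower, which is 53.5% of these and 4.04% of the 1140 genes lower without p53, against 6.82% of all. With p53 and p21 present 0 of the 330 were called, where 4 genes in all were higher (0.0239%) and 0 lower, although 1520 had an unadjusted p under 0.05. The 244 genes had a median log2 difference of 1.17 without p21, 0.38 with both genes and 0.98 without p53, and the 86 genes had medians of -1.10, -0.37 and -0.64. Only Inka2 passed in opposite directions, at 0.93 ± 0.17 without p21 and -0.57 ± 0.17 without p53 (adjusted p = 0.0433 and 0.047). The 3 contrasts share no array, but they share the pooled spread, and values in the chosen contrast are those the genes were chosen by.

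Whether the effect of CKIα loss differs by background was tested gene by gene. Against the effect with p53 and p21 present, 0 genes differed by limma (0%), 1359 had an unadjusted p under 0.05, and the smallest adjusted p was 0.308. Against the effect without p53, Dglucy was higher and Cyp1b1 lower, 0.00598% of genes each, and 1457 genes had an unadjusted p under 0.05. Dglucy, a mitochondrial enzyme of D-glutamate metabolism listed among p53 targets, lay at 7.86 and 7.94 on the Het arrays and at 8.77 and 8.27 on the KO arrays (0.62 ± 0.17, adjusted p = 0.0805). Its effect without p53 was -2.30 ± 0.17, and the difference was 2.92 ± 0.24 (adjusted p = 0.00617). Cyp1b1, a cytochrome of the aryl hydrocarbon response, lay at 4.08 and 3.87 on the Het arrays and at 4.02 and 3.93 on the KO arrays, so it did not part the groups without p21. It rose by 2.52 ± 0.19 without p53, and the difference of -2.52 ± 0.27 passed (adjusted p = 0.0291). The counts of these differences moved with single arrays: against the effect with both genes 0 to 108 genes passed as each array was left out, with 108 without KO replicate 1, and against the effect without p53 0 to 128, with 128 without KO replicate 2.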

How the data were processed

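Total RNA of mouse enterocytes was extracted with Trizol and hybridized as biotin-labelled cRNA to Affymetrix arrays. Per the labels' protocols, the authors summarised the arrays with Affymetrix Expression Console 1.1 (RMA Sketch) and normalized by median intensities. The deposited table was taken to hold log2 intensities; the base is not stated and was inferred from their range, with array medians from 4.96 to 5.12. Arrays carry no read depth, and their number limits the precision.

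The platform annotation gave 21789 of 35556 probe sets 1 symbol, 1621 several and 12146 none. Only the former were used, the brightest for each of 999 genes with more than 1. Of 19938 genes, 16721 exceeded an array's 25th percentile on at least 2 of 12 arrays, and 16665 of these matched the RefSeq table of GRCm38.p6 by Entrez number. The remaining array, whose title and genotype labels disagree, was left out.

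The 12 arrays of 6 groups (2 per group, 6 residual degrees of freedom) were fitted with limma 3.58.1 in R 4.3.3. Two-sided p-values were adjusted by Benjamini and Hochberg over all tested genes, with calls under 0.05. P-values measure the spread between arrays labelled biological replicates, sex pattern included. Alternatives were no filter, quantile normalization, an intensity trend, array weights, a replicate block, the mean of probe sets, the 4 arrays alone and each array left out.

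Genes were named by rule: at most 15 called genes in each direction by size, every called list member, the 4 members of a list with the lowest p, at most 10 genes per test of a difference between backgrounds with the smallest p, and list members by role. Predicted-gene, Riken and receptor-segment symbols were passed over. The genes followed and the 44 lists (1142 genes, 1039 tested) were chosen with earlier results of these data known.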

Additional observations from a re-analysis of the deposited data

Results flagged for a closer look

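The effect of CKIα loss differed between mice without p21 and mice without p53 for 2 genes by the limma test of the difference. For Dglucy it was higher without p21 by 2.92 on the log2 scale (adjusted p = 0.00617). For Cyp1b1 it was lower without p21, with a difference of -2.52 (adjusted p = 0.0291). Dglucy kept an adjusted p under 0.05 in all settings but the fits without CKIα Het/p21 KO replicate 2 (0.0609) and without CKIα Het/p53 KO replicate 1 (0.0712). Cyp1b1 lost it without any one of the 4 Het arrays of these 2 backgrounds, without either CKIα Het array, without CKIα KO/p21 KO replicate 1 and with crossed replicate numbers, with adjusted p from 0.0568 to 0.147.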

How the results depend on the processing

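The counts moved with single arrays and settings. No filter on dim genes gave 126 higher and 37 lower genes, a further quantile normalization 142 higher, array weights 90 and 29, and the 4 arrays alone 0 and 0. An intensity trend, the mean of probe sets and the replicate block changed the counts by less than 1.5 times. With the replicate block, 242 were higher and 81 lower, and 253 of the 330 calls were kept. Of 115 called genes followed by name, 22 no longer passed with the block, at adjusted p from 0.05 to 0.0568. In the text these are Cybrd1, Slc40a1, Nolc1, Dkc1, Gar1, Anln, Cenpe, Chek2, Tert, Cd80, Ei24, Neurod1, Isl1, Sh2d6, Ier2, Cd83, Icos, Pik3cd, Naip2 and Naip6. The p53 arrest list then had 13 calls and the mitosis list 8. The number goes with the male or female pattern in all 6 groups, so the block also stands for that pattern. The labels do not say that it marks shared litters or days, and the numbers were not taken as pairs: deviations of same-numbered arrays correlated at -0.162 between the groups compared and between -0.162 and 0.248 over 15 pairs of groups. With the numbers crossed, 25 genes were higher and 13 lower, and against the effect without p53 0 were lower. Leaving out each array in turn gave 0 to 1695 higher and 0 to 1082 lower genes. For the difference from the effect with p53 and p21, it gave 0 to 74 higher and 0 to 34 lower. For the difference from the effect without p53, it gave 0 to 96 higher and 0 to 32 lower, and the replicate block gave 2 and 2. Fewer arrays also left fewer residual degrees of freedom; the cause of each change was not tested. Where a group kept 1 array, that array was assumed to vary like the others. Differences that were not called and changed sign on leaving out an array ranged from -0.0039 to 0.0481 for Bbc3, -2.0834 to 0.14 for Cnn1, -0.5755 to 0.0613 for Ctse, -0.0991 to 0.1114 for Cyp1b1, -4.9441 to 0.1954 for Cyp3a11, -0.1286 to 0.226 for Fas, -0.0193 to 0.1296 for Slc4a1 and -1.7046 to 7e-04 for Tagln. Fas was at -0.0897 with quantile normalization.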

Other observations

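Families were also taken by symbol after their values were seen. All 51 cytosolic ribosomal protein genes had a log2 difference above 0, with a median of 0.74, 0.51 on KO replicate 1 and 0.96 on KO replicate 2, and 2 were called higher, Rplp2 (1.27 ± 0.21) among them. Of 77 mitochondrial ribosomal protein genes 75 were above 0 and 7 were called higher, with a median of 0.49; Mrps6 lay at 6.52 and 6.11 on the Het arrays and at 7.30 and 7.50 on the KO arrays. The 4 proteins of the H/ACA particle, which guides pseudouridine formation in ribosomal RNA and holds telomerase RNA, were at 1.84 (Nhp2), 1.35 (Gar1), 1.31 (Dkc1) and 1.00 (Nop10), and the first 3 were called. All 8 subunits of the chaperonin CCT, which folds actin and tubulin, lay between 0.74 and 1.19, and Cct3 and Cct8 were called. Over all genes tested 1.46% were called higher and 26.9% had both KO arrays above both Het arrays, as 50 of the 51, 60 of the 77, 4 of the 4 and 8 of the 8 did. The rise was not confined to these families. Of 39 genes with proteasome symbols (Psma to Psmd) 35 were above 0, with a median of 0.52. Both KO arrays were above both Het arrays for 30 of them, and 1 was called higher and 1 lower.

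The Naip genes, which sense bacterial flagellin and secretion systems for the inflammasome, were lower on both KO arrays. Naip6 lay at 10.14 and 10.73 on the Het arrays and at 9.14 and 9.04 on the KO arrays (-1.35 ± 0.28, adjusted p = 0.0481). Naip2 fell by 0.68, and Naip5 was at -0.99 ± 0.24 (adjusted p = 0.0644). These genes are close in sequence, and shared signal was not tested. Fbxo32, a ubiquitin ligase subunit of muscle wasting, fell from 7.22 and 7.49 to 6.07 and 5.70 (-1.47 ± 0.24, adjusted p = 0.033). Its effects were 0.09 with p53 and p21 present and -0.06 without p53, and neither difference from the effect without p21 passed. Mybl1, a relative of the Myb factors that act in proliferating cells, rose from 4.07 and 3.84 to 5.25 and 5.99 (1.66 ± 0.25, adjusted p = 0.0268). All were chosen after their values were seen.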
